A study of Mus musculus with 18 samples.

Results

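The genes described here are the protein-coding genes of the mouse whose symbol starts with Kcn, which encode the pore-forming and auxiliary subunits of potassium channels. There were 94 of them among the 51435 genes in the deposited tables. A further 5 noncoding genes with such symbols, among them the antisense transcript Kcnq1ot1, were left out. Transcripts of the 94 genes were measured by poly(A) RNA-seq of the left ventricle (LV) in 18 mice. All mice were C57BL/6J and all received angiotensin II (AngII), a vasoconstrictor peptide used here to load the heart, at 500 ng/kg/min by osmotic minipump for 28 days from 8 weeks of age. The groups were 9 WT mice and 9 WWP2 Mut/Mut mice, which carry a CRISPR/Cas9 deletion of 4 bp in exon 2 of the ubiquitin ligase gene Wwp2 that removes the full-length and N-terminal isoforms of the protein. No mouse without AngII was among the libraries analysed, so the values describe the infused heart in both groups. Levels are given as TPM, the relative abundance of a gene's transcripts, which accounts for transcript length and can be compared between genes. After the removal of rRNA and mitochondrial genes by the authors, the genes left held 67.2 to 82.6% of the full TPM scale of a library, so a TPM value also depends on how much was removed.

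Potassium channels carry the currents that repolarise the cardiac muscle cell after each beat and hold its resting potential. In the mouse ventricle, repolarisation rests mainly on rapidly activating transient outward and delayed rectifier currents, whereas inward rectifier channels set the resting potential. G protein-gated inward rectifiers, which open upon vagal stimulation, are best known from the atria and the sinoatrial node, and ATP-sensitive channels open when the cell runs short of ATP.

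Wwp2, the targeted gene, was measured at 3.83 to 6.01 TPM in WT mice (median 5.10) and at 1.19 to 3.00 TPM in WWP2 Mut/Mut mice (median 1.58), and the groups did not overlap (exact permutation of genotype, two-sided, p = 4.11e-05, the smallest value possible with 9 mice against 9). The libraries held 24566994 to 37451087 counts. Ventricular muscle genes summed to 44368 to 59001 TPM over 8 markers in every library. Myl7, the atrial light chain of myosin, was at 0.09 to 7.14 TPM in 13 libraries and at 48.7 to 338 TPM in the other 5, which were WT mice 43-3, 45-1 and 84-2 and WWP2 Mut/Mut mice 22-3 and 8-2, and these are called the libraries with atrial RNA below. The name rests on Myl7. Myl4 and Sln were also higher in the 5, at 40.2 to 255 and 4.23 to 35.1 TPM, where the 13 reached 9.53 and 0.46 TPM. The summed 6 atrial markers, these 3 among them, overlapped, at 584 to 1186 TPM in the 5 and 319 to 1053 TPM in the 13. Bmp10, also on that list, reached at most 0.03 TPM in any library. Liver markers summed to 1.44 to 284 TPM. The deposited gene body coverage is a fraction per library under the name genebody_bottomhalf, whose definition the sources do not give. Low and high coverage below refer to this value alone, and not to depth or to the coverage of whole transcripts. It ran from 0.0288 to 0.0341 in 8 mice and from 0.0383 to 0.05398 in 10 mice, with 4 and 5 mice of each genotype in those ranges. Of the 5 libraries with atrial RNA, 4 were among the 8 of low coverage. WT mouse 43-3 also had a listed RNA concentration of 1.68 ng/µl, where WT mice had a median of 98.3 and WWP2 Mut/Mut mice a median of 187 ng/µl.

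Most of the family was barely expressed in the LV. Of the 94 genes, 20 had a mean of at least 1 TPM over the 18 mice, 26 had a mean between 0.1 and 1 TPM, 48 lay below 0.1 TPM, and 12 had no count in any mouse. The 20 expressed genes held 96.4% of the summed TPM of the family, and the top 4 alone held 60.1%. By role, the transient outward genes were the most abundant group, with a median of 59.9 TPM over their 8 members, followed by the 2 ATP-sensitive pore genes at 54.9 TPM and the 14 two-pore genes at 49.5 TPM. The first place rests on counting Kcnip2 (mean 55.4 TPM), which encodes a cytosolic subunit, with the transient outward genes and not with the auxiliary ones. The 26 delayed rectifier genes summed to a median of 43.3 TPM, although only 4 of them reached 1 TPM. The 13 auxiliary genes, without the Kcnip genes, summed to a median of 13.03 TPM. Kcne2, an auxiliary subunit, and Kcnj6, another G protein-gated pore subunit, were among the 12 genes without a count.

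**Figure D1:**
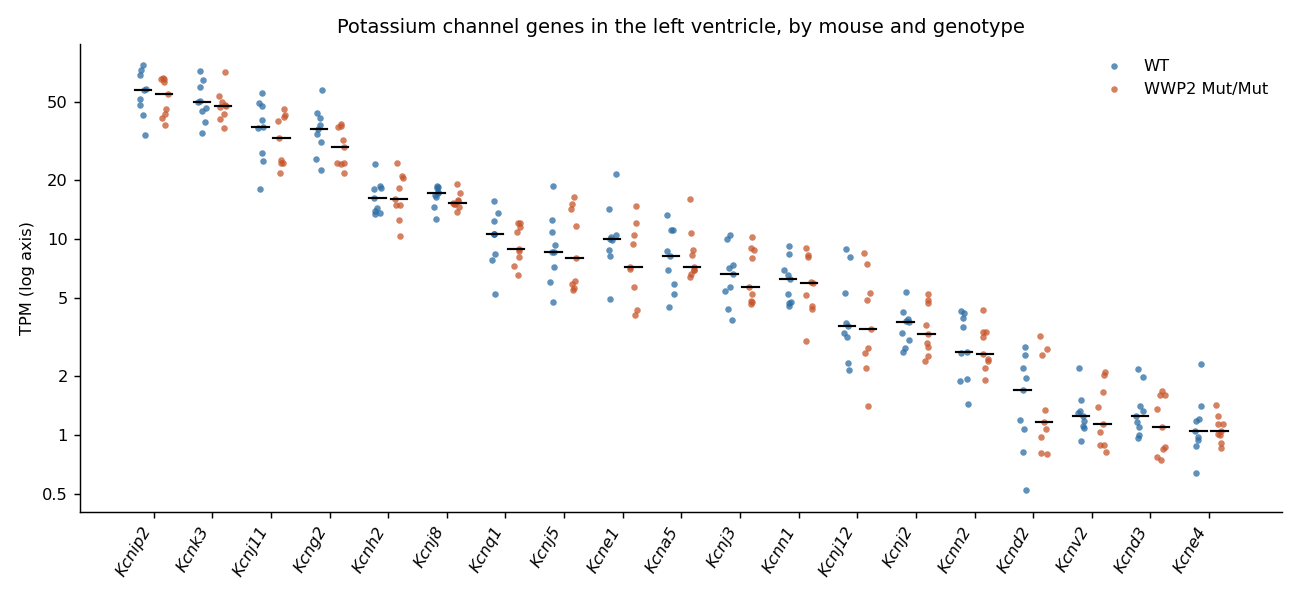
TPM (log axis) of 19 potassium channel genes with a mean of at least 1 TPM, with 1 point a mouse, WT in blue and WWP2 Mut/Mut in orange, and a black bar at each group's median. The points of the 2 genotypes overlap for every gene, and Kcnip2 and Kcnk3 stand highest.

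The transient outward current is carried by Kv channels of the Kcnd genes together with the cytosolic subunit encoded by Kcnip2. Kcnip2 was the most abundant gene of the family, at 33.9 to 77.2 TPM in WT mice (median 57.9) and 38.3 to 66.5 TPM in WWP2 Mut/Mut mice (median 55.0). The pore genes were far lower. Kcnd2 was at 0.52, 1.70 and 2.81 TPM (lowest, median and highest) in WT mice and at 0.80, 1.16 and 3.19 TPM in WWP2 Mut/Mut mice, and Kcnd3 had a mean of 1.27 TPM. Kcna4, which forms the slowly recovering part of the transient current, had a mean of 0.17 TPM. The TPM of Kcnd2 was thus 0.0153 to 0.0480 of that of Kcnip2 within the same mouse. Because their products form 1 channel but their levels differ this much, the stretches just before both annotated starts are shown, from RefSeq on GRCm38.p6 (Kcnip2 at chr19:45816064-45816313, minus strand, and Kcnd2 at chr6:21215096-21215345, plus strand), each 250 bases long and ending at the start, with matches to the GC box (GGGCGG, either strand) in capitals.
Kcnip2: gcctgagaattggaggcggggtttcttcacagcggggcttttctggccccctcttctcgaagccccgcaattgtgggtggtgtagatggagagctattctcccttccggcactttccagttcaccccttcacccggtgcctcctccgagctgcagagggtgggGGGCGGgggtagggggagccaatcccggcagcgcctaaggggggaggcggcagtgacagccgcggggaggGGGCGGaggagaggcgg
Kcnd2: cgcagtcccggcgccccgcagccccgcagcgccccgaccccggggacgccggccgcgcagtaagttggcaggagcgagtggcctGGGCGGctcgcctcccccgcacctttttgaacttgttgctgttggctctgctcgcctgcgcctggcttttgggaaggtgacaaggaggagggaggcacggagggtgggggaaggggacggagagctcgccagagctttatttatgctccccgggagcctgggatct
The Kcnip2 stretch held 2 such matches and 66.8% G and C, and the Kcnd2 stretch held 1 and 68.8%. GGGCGG occurred in 32.7% of all 32851 such stretches and in 6 of the 13 that belong to the expressed members, of which 12 of 20 were matched by symbol. TATAAA was found in 12.4% of all stretches and in 0 of those 13, which says only that these letters are absent from these windows.

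Delayed rectifier genes were led by Kcnh2, which encodes the pore of the rapid delayed rectifier, at 13.4 to 24.2 TPM in WT mice (median 16.2) and 10.4 to 24.55 TPM in WWP2 Mut/Mut mice (median 16.01). Kcnq1, the pore of the slow delayed rectifier, ranged from 5.23 to 15.6 TPM in WT mice (median 10.6) and from 6.57 to 12.1 TPM in WWP2 Mut/Mut mice (median 8.93). Its auxiliary subunit Kcne1 ranged from 4.92 to 21.4 TPM (median 9.99) and from 4.11 to 14.7 TPM (median 7.20) in the same groups. For both genes the highest mouse was WT, and the genotypes overlapped over most of their ranges. Kcna5, which carries an ultrarapid current in mouse ventricle and human atrium, was at 4.48 to 13.3 TPM in WT mice (median 8.21) and 6.39 to 15.96 TPM in WWP2 Mut/Mut mice (median 7.17). Kcng2 and Kcnv2 encode subunits that form no channel alone but modify other Kv channels. Kcng2 was the fourth most abundant gene, at 22.4 to 57.5 TPM in WT mice (median 36.7) and 21.7 to 38.8 TPM in WWP2 Mut/Mut mice (median 29.3), and Kcnv2 had a mean of 1.32 TPM. Kcne4, an auxiliary subunit that inhibits Kcnq1 channels, had a mean of 1.13 TPM.

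Among the inward rectifiers, the 2 ATP-sensitive pore genes were the highest. Kcnj11, the pore of the channel in ventricular muscle, was at 17.95 to 55.8 TPM in WT mice (median 37.49) and 21.7 to 45.9 TPM in WWP2 Mut/Mut mice (median 32.9). Kcnj8, the pore found in vascular smooth muscle and pericytes, had the narrowest spread, at 12.7 to 18.7 TPM in WT mice (median 17.3) and 13.8 to 19.0 TPM in WWP2 Mut/Mut mice (median 15.3). The classical inward rectifier genes Kcnj12 and Kcnj2 had means of 4.39 and 3.62 TPM.

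The G protein-gated pair Kcnj3 and Kcnj5, whose products join into the acetylcholine-activated channel, was present in every mouse. Kcnj3 was at 3.85 to 10.4 TPM in WT mice (median 6.64) and 4.64 to 10.3 TPM in WWP2 Mut/Mut mice (median 5.69). The partner Kcnj5 was at 4.74 to 18.6 TPM in WT mice (median 8.62) and 5.47 to 16.4 TPM in WWP2 Mut/Mut mice (median 7.95). Mice at either end of these ranges were found in WT and in WWP2 Mut/Mut alike. Because the 2 genes rose and fell together, as described below, the 250 bases before their annotated starts are shown (Kcnj3 at chr2:55435720-55435969, plus strand, and Kcnj5 at chr9:32344345-32344594, minus strand, RefSeq on GRCm38.p6), with capitals for GC boxes (GGGCGG) and for T-box half-sites (AGGTGT), either strand.
Kcnj3: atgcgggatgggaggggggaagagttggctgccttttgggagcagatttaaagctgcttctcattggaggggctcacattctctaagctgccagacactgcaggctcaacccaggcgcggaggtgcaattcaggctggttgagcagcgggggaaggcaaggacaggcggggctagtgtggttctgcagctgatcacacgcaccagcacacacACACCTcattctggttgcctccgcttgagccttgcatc
Kcnj5: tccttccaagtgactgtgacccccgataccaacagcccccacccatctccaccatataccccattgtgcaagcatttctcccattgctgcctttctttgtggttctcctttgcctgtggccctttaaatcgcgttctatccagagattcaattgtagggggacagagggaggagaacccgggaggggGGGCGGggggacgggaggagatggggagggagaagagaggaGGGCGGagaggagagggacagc
The Kcnj3 stretch held 1 T-box half-site and no GC box, and the Kcnj5 stretch held 2 GC boxes and no half-site, so these letters were not shared by the pair. AGGTGT occurred in 11.8% of all such stretches. An E box (CACGTG) was in neither, and was in 6.02% of all stretches.

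Of the remaining expressed genes, Kcnk3, a two-pore channel that carries a background current, was the second most abundant at 34.7 to 72.2 TPM in WT mice (median 50.3) and 37.0 to 71.0 TPM in WWP2 Mut/Mut mice (median 47.9). It was the single two-pore gene of 14 to reach 1 TPM. The calcium-activated genes Kcnn1 and Kcnn2 encode small-conductance channels. Kcnn1 was at 4.53 to 9.16 TPM in WT mice (median 6.25) and 3.01 to 8.98 TPM in WWP2 Mut/Mut mice (median 5.96), and Kcnn2 had a mean of 2.89 TPM. Of the 20 expressed genes, 11 overlap another annotated gene in GENCODE M21, among them Kcnk3, Kcnh2, Kcnq1, Kcnj3 and Kcnd2. The library kit keeps strand, but whether strand was used in counting is not given in the sources used here, so reads of such neighbours could not be told apart.

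No potassium channel gene was called between genotypes. The fit covered the 24804 genes whose counts summed to more than 1, 80 of the 94 among them, with RNA concentration and lane as covariates. None of the 80 was called (edgeR's quasi-likelihood test, Benjamini-Hochberg adjustment, FDR below 0.05, smallest adjusted p = 1.00), 2 (2.5%) had an unadjusted p below 0.05, as did 3.66% of all genes, and DESeq2 and limma also called 0, with 1 and 2 genes at an unadjusted p below 0.05. Over all genes 0.00403% were called by edgeR, which is Wwp2 alone, and 597 and 1156 genes had an unadjusted p below 0.05 by DESeq2 and limma. Among the 20 expressed genes, the fitted ratio of WWP2 Mut/Mut to WT ran from 0.959 (Kcnj12) to 1.16 (Kcna5), and the smallest unadjusted p was 0.164 (Kcnk3). With gene body coverage in the model, 5 of the 80 genes had an unadjusted p below 0.05, as did 1333 of all 24804 genes, and 0 of the 80 were called by edgeR. The differences of Kcnj3 and Kcnj5 were then 0.24 (unadjusted p = 0.00749) and 0.26 (unadjusted p = 0.0410) on the log2 scale in place of 0.14 and 0.15, and that of Kcnk3 was 0.17 (unadjusted p = 0.0473) in place of 0.14, with edgeR adjusted p of 0.522, 0.910 and 0.920.

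The intervals show which sizes of change these mice could have hidden. For the 12 most abundant genes, the 95% intervals of the ratio lay between 0.776 and 1.53. Kcnk3 had a ratio of 1.103 (95% interval 0.957 to 1.27), Kcnip2 of 1.05 (0.881 to 1.24) and Kcnj8 of 1.03 (0.877 to 1.22). Kcnd2 had the widest interval of the expressed genes, 0.599 to 1.64. The genes with the smallest p were nearly all close to the limit of detection. Kcnc2, a delayed rectifier known from neurons, was at 0.01 to 0.18 TPM in WT mice (median 0.05) and 0.01 to 0.10 TPM in WWP2 Mut/Mut mice (median 0.03), with 2 to 18 counts a mouse and an unadjusted p of 0.0277. Kcnk10 had 3 counts in all, in 2 WT mice, and was listed at 0 in every WWP2 Mut/Mut mouse (unadjusted p = 0.0421). Kcnj9, a G protein-gated pore subunit, had 18 counts over 9 mice, with at most 0.01 TPM in WT mice and 0.03 TPM in WWP2 Mut/Mut mice, and the medians were 0 and 0.01 TPM. Kcnk12 had 5 counts over 4 mice, with at most 0.01 and 0.03 TPM and a median of 0 in both genotypes. Kcnmb1, which encodes the smooth muscle auxiliary subunit of the large-conductance channel, was at 0.35 to 0.62 TPM in WT mice (median 0.50) and 0.38 to 0.74 TPM in WWP2 Mut/Mut mice (median 0.47), with an unadjusted p of 0.107. For each of these 5 genes the genotypes overlapped, and every adjusted p was 1.00.

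Of the 28 partner genes of these channels (regulatory subunits, sodium and calcium channels, gap junction genes and receptors), 27 were tested and 0 were called between genotypes by edgeR. The RNA concentration of WT mice was the lower (exact permutation, two-sided, p = 0.0422, or 0.0835 without WT mouse 43-3, whose listed value may be an error) and was a covariate of the fit. In heart tissue as a whole, fewer cells of a type and less RNA in each cell cannot be told apart.

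**Figure D2:**
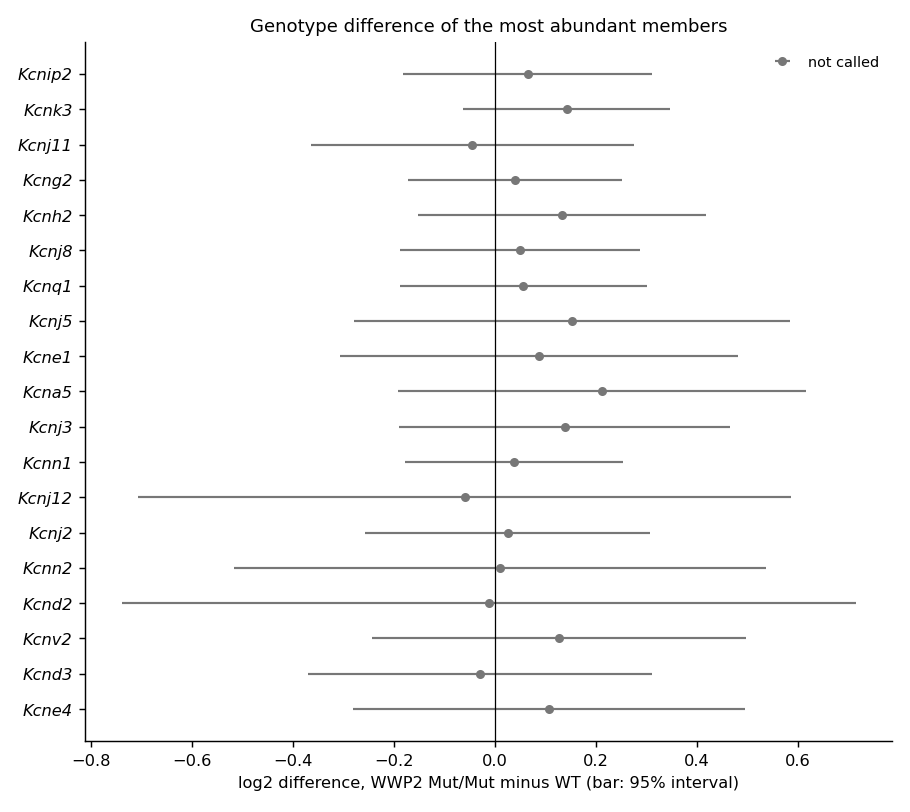
Fitted log2 difference between WWP2 Mut/Mut and WT mice for 19 expressed potassium channel genes (points), with 95% intervals (bars). Every interval spans 0, and no gene was called.

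Several of these genes are known as atrial, so their level was also tested along the Myl7 level of each library, as log2(Myl7 TPM + 1), with genotype, RNA concentration and lane in the model. None of the 80 tested genes was called (edgeR's quasi-likelihood test, 0 of 80, smallest adjusted p = 0.517), against 0.0645% of all genes, and 9 (11.25%) had an unadjusted p below 0.05, as did 8.78% of all genes. DESeq2 and limma called 0 as well, with 10 and 14 of the 80 genes at an unadjusted p below 0.05, as had 2001 and 3031 of all 24804 genes. Among the 20 expressed genes the fitted slope was positive for 16, with a median of 0.05 on the log2 scale per log2 unit of Myl7, where the median over all genes tested was -7.09e-05.

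Kcnh2 had the smallest p, with a slope of 0.07 (SE 0.02, adjusted p = 0.517 by edgeR). It was at 16.2 to 24.55 TPM in the 5 libraries with atrial RNA (median 20.96) and at 10.4 to 20.6 TPM in the other 13 (median 14.8). Kcne1 was at 9.41 to 21.4 TPM (median 14.2) against 4.11 to 12.04 TPM (median 8.14), with a slope of 0.09 (SE 0.03). Kcnj5 was at 9.33 to 18.6 TPM (median 14.3) against 4.74 to 15 TPM (median 7.19), and Kcnj3 at 7.09 to 10.4 TPM (median 7.99) against 3.85 to 10 TPM (median 5.43). For all 4 genes the libraries with atrial RNA lay high but overlapped the rest. This order was not limited to genes known as atrial. Kcnj11, the pore in ventricular muscle, was at 39.9 to 55.8 TPM (median 45.9) against 17.95 to 47.7 TPM (median 27.6), with a slope of 0.07 (SE 0.03). Kcnv2 (slope 0.08) and Kcnn2 (slope 0.10) also rose with Myl7, and edgeR called none of these. Kcna5, which is prominent in human atrium, showed no such order, at 5.91 to 13.3 TPM (median 6.93) against 4.48 to 15.96 TPM (median 8.21). Kcnk3, another gene of the atrium, was at 48.1 to 71.0 TPM (median 59.7) against 34.7 to 72.2 TPM (median 46.5). Since 4 of these 5 libraries also had low gene body coverage, the slopes were fitted again with coverage in the model. The Myl7 slope was then 0.06 for Kcnh2 (0.07 without coverage), 0.11 for Kcne1 (0.09), 0.05 for Kcnj5 (0.09) and 0.03 for Kcnj3 (0.06), and none was called by edgeR. Without WT mouse 45-1 the slope was 0.17 for Kcnj5 and 0.10 for Kcnj3, again with no call. Other cell type markers moved with these libraries too. The summed conduction system markers were at 9.43 to 25.6 TPM in the 5 libraries and at 3.18 to 8.93 TPM in the other 13, and the adipocyte markers at 3.20 to 21.4 TPM and at 0.04 to 2.80 TPM, neither with overlap. Fibroblast markers were at 247 to 447 TPM (median 367) and at 166 to 346 TPM (median 241). Liver markers had the lower median in the 5 libraries, at 1.44 to 284 TPM (median 2.90) against 4.29 to 127 TPM (median 40.5). The part of all these markers in the slopes was not tested. Of the 27 partner genes tested, 0 were called along Myl7, and Hcn4, the pacemaker channel gene, had the smallest adjusted p (0.0944, slope 0.14).

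**Figure D3:**
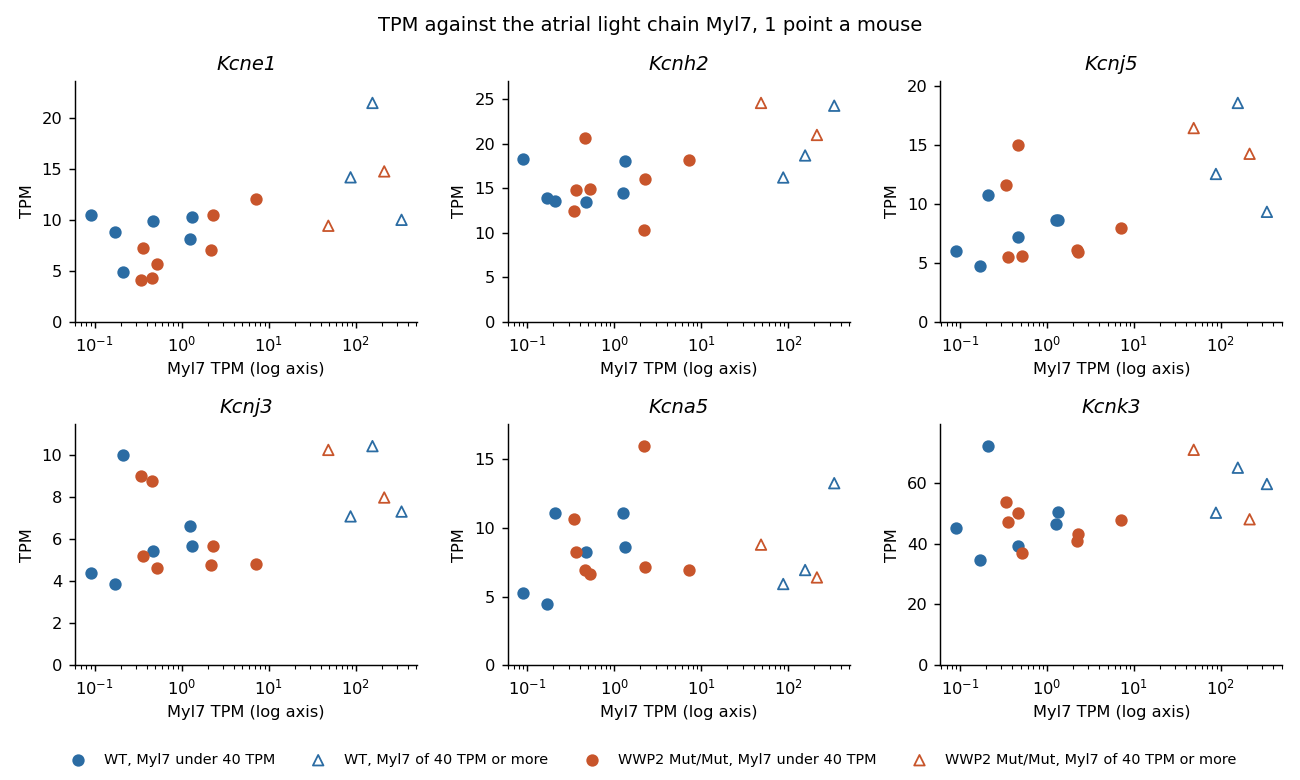
TPM of 6 potassium channel genes (vertical axis from 0) against Myl7 TPM (log axis), with 1 point a mouse. Triangles mark the 5 libraries with at least 40 TPM of Myl7 and circles the other 13. Kcne1 and Kcnh2 lie high among the triangles, whereas the triangles of Kcna5 lie within the range of its circles.

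Along gene body coverage, potassium channel genes of several roles were called, with Kcnd2, Kcnj12, Kcnj5 and Kcnj3 lower in mice of higher coverage and Kcnip2, Kcnk3 and Kcnj8 not called by edgeR. Fitted per SD of coverage (0.00821), with genotype, RNA concentration and lane in the model, 14 of the 80 genes were called (17.5%, edgeR's quasi-likelihood test, FDR below 0.05), 11 of them lower and 3 higher in mice of higher coverage. Over all genes 30.9% were called, 16.1% lower and 14.8% higher. Among genes with a mean of at least 1 TPM, 54% were called and 29.6% were called lower, and among the 20 expressed potassium channel genes 9 (45%) were called, every one of them lower. On log2(TPM + 1), limma called 19 of the 80 (23.75%), all lower, where over all genes it called 32.1%, and 26.8% lower. Kcnip2 (-0.27) and Kcnk3 (-0.24) were among these 19 and Kcnj8 (-0.04) was not. Over the 11336 genes with at least 1 TPM, the median slope was -0.13 per SD on log2(TPM + 1) and -0.01 on TMM-normalized log2 CPM, and 15 and 16 of the 20 members lay below it. The share of the TPM scale left after the removal of rRNA and mitochondrial genes also moved with coverage. It was 67.2 to 76.4% in the 8 low-coverage mice and 79.3 to 82.6% in 9 of the 10 high-coverage mice, with 72.9% in the remaining one, WT mouse 45-1, and its part in the TPM ranges below was not tested.

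Kcnd2, the transient outward pore gene, had the smallest p. It was at 1.33, 2.55 and 3.19 TPM (lowest, median, highest) in the 8 mice of low coverage and at 0.52, 1.02 and 1.70 TPM in the 10 of high coverage. The ranges overlapped in 1 low-coverage mouse, WWP2 Mut/Mut 8-2, and 1 high-coverage mouse, WT 45-1. The fitted difference was -0.66 per SD on the log2 scale (SE 0.07, adjusted p = 7.21e-07 by edgeR). Its partner Kcnip2 was at 57.9, 65.9 and 72.6 TPM in the low-coverage mice and at 33.9, 44.6 and 77.2 TPM in the high-coverage mice, where WT mouse 45-1 alone exceeded 55.03 TPM. On normalized counts Kcnip2 had a fitted difference of -0.06 (SE 0.05, adjusted p = 0.430 by edgeR). The ratio of Kcnd2 to Kcnip2 within a mouse, which no scaling between libraries touches, had a median of 0.0384 in the low-coverage mice (0.0209 to 0.0480) and of 0.0207 in the high-coverage mice (0.0153 to 0.0278).

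Of 6 inward rectifiers with a mean of at least 1 TPM, 5 were called lower, and of the 8 tested below 1 TPM, 0 were called by edgeR, where 29.6% of all genes at 1 TPM or more were called lower and 11.5% of those below 1 TPM were called. Kcnj12 was at 3.70 to 8.87 TPM in the low-coverage mice and 1.40 to 3.58 TPM in the high-coverage mice, with no overlap, and a difference of -0.56 per SD (SE 0.08, adjusted p = 4.37e-05 by edgeR). Kcnj5 had a difference of -0.36 (SE 0.06) and Kcnj3 of -0.28 (SE 0.04), both with ranges that overlapped through WT mouse 45-1, the library highest in Myl7. Kcnj3 was at 6.64 to 10.4 TPM (median 8.88) and at 3.85 to 7.32 TPM, and Kcnj5 at 8.62 to 18.6 TPM (median 13.4) and at 4.74 to 9.33 TPM. Kcnj11 (-0.23) and Kcnj2 (-0.19) were also called lower.

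Kcnj8 was the exception among the abundant inward rectifiers, with a difference of 0.10 (SE 0.05, adjusted p = 0.123 by edgeR) and nearly equal ranges of 13.8 to 18.7 TPM and 12.7 to 19.0 TPM. Abcc9 encodes the sulfonylurea receptor that assembles with Kcnj8 in vessels and with Kcnj11 in ventricular muscle. It was at 17.85 to 31.1 TPM in the low-coverage mice and 8.97 to 16.5 TPM in the high-coverage mice, with a difference of -0.46 (SE 0.05, adjusted p = 3.44e-06 by edgeR). The ratio of Abcc9 to Kcnj8 was 1.14 to 2.24 (median 1.51) in the first set and 0.676 to 0.895 (median 0.745) in the second. The ratios of the 2 sets did not overlap.

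Of the other genes, Kcnn2 (-0.46) and Kcnq1 (-0.17) were lower with higher coverage, as were 2 genes below 1 TPM, Kcna7 (-0.79), a Kv channel gene of striated muscle, and Kcnc1 (-0.54). The 3 genes that were higher were all below 1 TPM. Kcnt1, a sodium-activated channel gene, had a difference of 0.88 and was at 0.05 to 0.25 TPM in the low-coverage mice and 0.11 to 0.58 TPM in the high-coverage mice. Kcnip3 (0.30), which encodes a calcium-binding protein of the same family as Kcnip2, was also called, and on log2(TPM + 1) limma called none of the 3. By role, edgeR called 5 of 22 delayed rectifier genes, 2 of 3 G protein-gated genes, 0 of 11 auxiliary genes, 0 of 10 two-pore genes and 0 of 7 modulatory Kv genes, where 30.9% of all genes were called. The last 3 roles held 2, 1 and 2 genes with a mean of at least 1 TPM, and differences between roles were not tested.

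**Figure D4:**
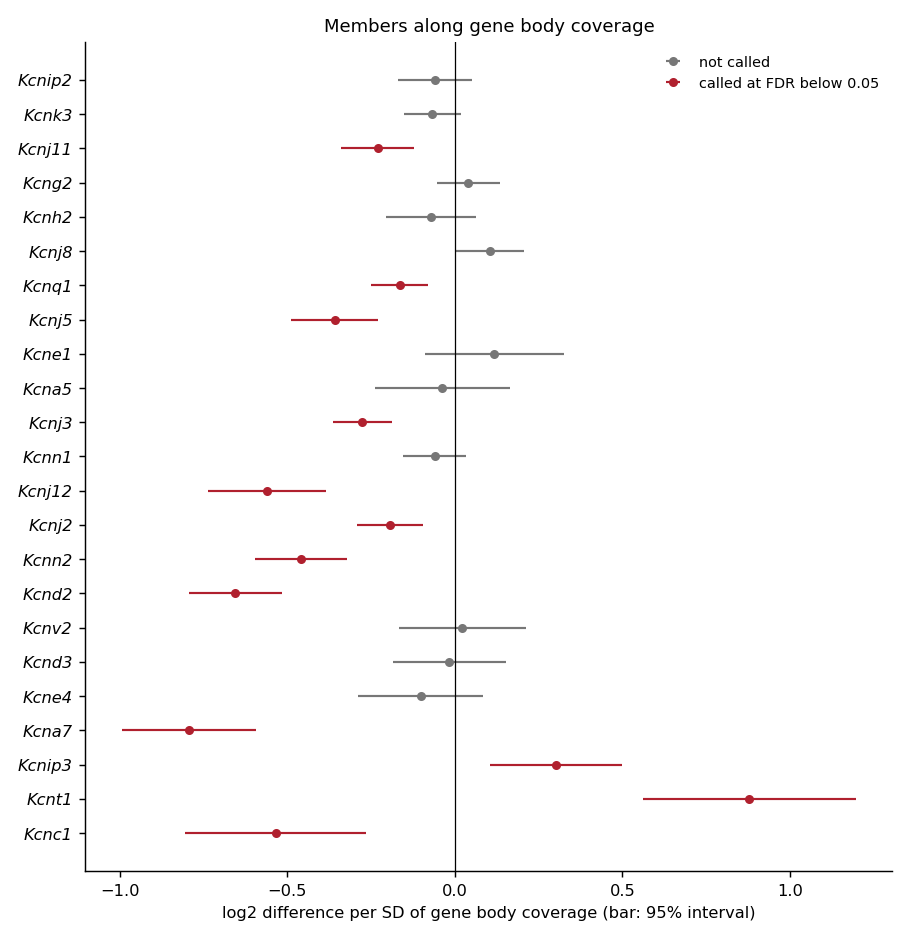
Fitted log2 difference per SD of gene body coverage (points) with 95% intervals (bars) for 19 expressed genes and 4 called genes below 1 TPM. Called genes are in red, and Kcna7 and Kcnd2 lie farthest to the left and Kcnt1 farthest to the right.

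As a description of the same mice, slopes of log2(TPM + 1) within each lane had the fitted sign in all 4 lanes for 12 of the 14 called genes, and within each genotype had it in both for 13 of the 14, Kcnip3 being the exception. Over all called genes these shares were 67.2% and 84.1%, and on this scale they were 95.2% and 97.8% for genes called lower. With Myl7 in the model 15 of the 80 genes were called, where 7321 of all 24804 genes were called. Without the 5 libraries with atrial RNA 10 of 78 were called (12.8%), where over all genes 21.8% were called in those 13 mice. Kcnq1 (-0.13), Kcnj2 (-0.16) and Kcnip3 (0.22) were among the genes no longer called, with the same signs as in 18 mice. The 9 expressed genes called lower had transcripts of 2463 to 11153 bases (median 4685), and the 11 not called had transcripts of 693 to 5108 bases (median 2862), as annotated in GENCODE M21. Each length is that of 1 coding transcript per gene, a principal one where marked. The 693 bases are those of Kcnip2, 660 of them coding, and whether this transcript is the one measured was not tested. Across the 20 expressed genes the slope and the transcript length had a Spearman rho of -0.36, and across 10521 protein-coding genes with at least 1 TPM a rho of -0.52, as descriptions over genes that share the same libraries. Of the 28 partner genes, 17 of 27 tested were called along coverage in the 18 mice, 14 lower and 3 higher. Of the 21 partners with a mean of at least 1 TPM, 15 were called, 12 of them lower, where 54% of all genes at that level were called and 29.6% were called lower. The muscarinic receptor gene Chrm2 (-0.47), which acts upstream of the G protein-gated channel, was lower. Of the marker lists, 6 of 8 ventricular cardiomyocyte genes were called along coverage (2 lower, 4 higher), 0 of 5 conduction system genes, 1 of 6 fibroblast genes (lower), 2 of 5 endothelial genes (higher), 1 of 7 smooth muscle and pericyte genes (higher), 0 of 5 immune genes, 0 of 5 Schwann and neuron genes, 2 of 6 atrial genes (1 lower, 1 higher), 1 of 4 skeletal muscle genes (higher), 2 of 5 liver genes (higher), 0 of 4 adipocyte genes and 2 of 5 cardiac stress genes (higher), and their part in the slopes was not tested.

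**Figure D5:**
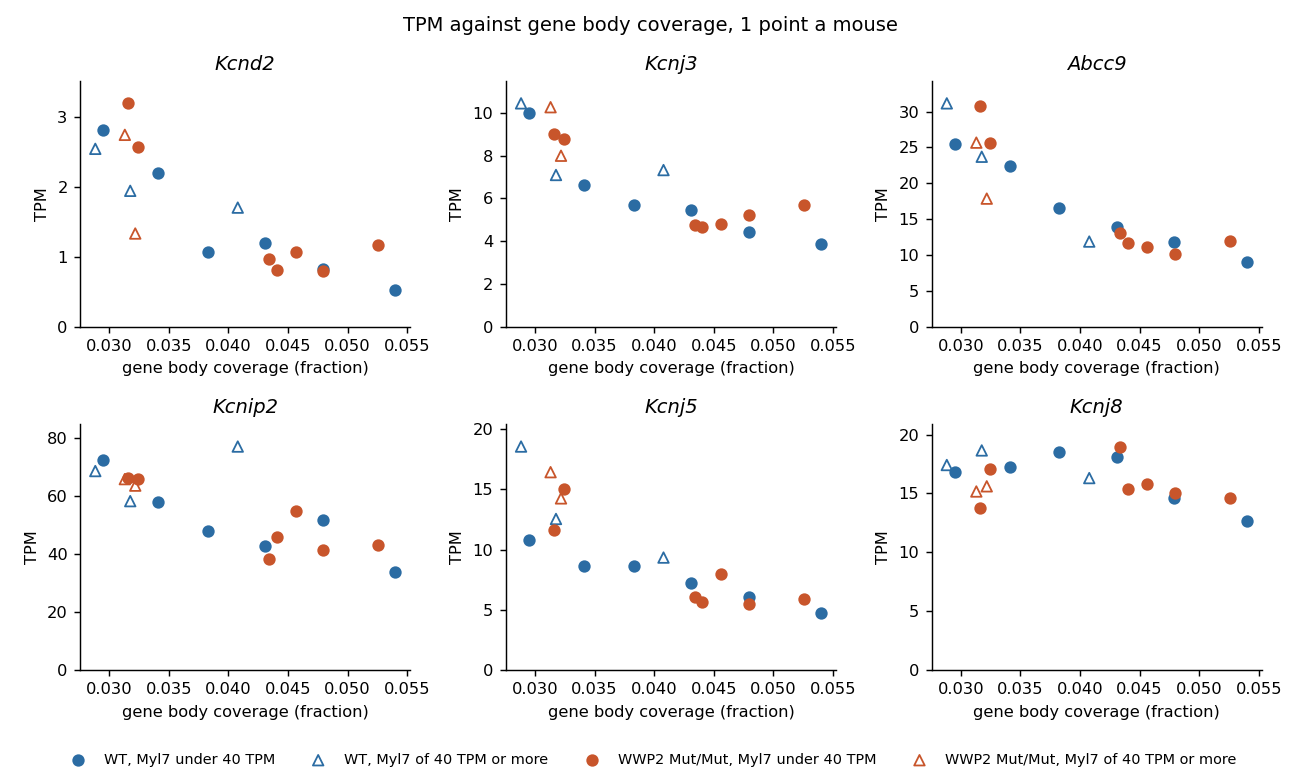
TPM (vertical axis from 0) of Kcnd2 and its partner Kcnip2, of Kcnj3 and Kcnj5, and of Abcc9 and Kcnj8 against gene body coverage, with 1 point a mouse and triangles for the 5 libraries with at least 40 TPM of Myl7. Kcnj8 spans like ranges at low and high coverage, and the other 5 genes stand higher at the left, where coverage is low, with Kcnip2 also high in WT mouse 45-1.

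The genes most like Kcnj3 in their pattern over the 18 mice, by Pearson's r of log2(TPM + 1), were Kcna7 (0.94), Kcnd2 (0.93), Kcnj2 (0.93) and Kcnj5 (0.91). 6 pairs of genes whose products belong to 1 channel or current, and 2 pairs of a channel gene with Nppb, were then compared across the 13 mice with little Myl7, with two-sided permutation tests adjusted over 8 pairs. Kcnj3 and Kcnj5 were correlated (Pearson's r = 0.89, permutation p = 0.0001, adjusted p = 0.00048, Spearman's rho = 0.83, adjusted p = 0.0056). So were Kcnd2 and Kcnip2 (r = 0.88, permutation p = 0.00012, adjusted p = 0.00048, rho = 0.79, adjusted p = 0.0080) and Kcnj2 and Kcnj12 (r = 0.86, permutation p = 0.00042, adjusted p = 0.00112, rho = 0.77, adjusted p = 0.0080). Without the 2 mice farthest from the median of the first gene, r was 0.89, 0.79 and 0.63, and the last no longer passed after adjustment (permutation, adjusted p = 0.109). By Spearman's rho none of the 3 passed without those mice (permutation, adjusted p = 0.0834, 0.130 and 0.130). On TMM-normalized log2 CPM, r was 0.73, 0.55 and 0.66, and Kcnd2 and Kcnip2 no longer passed (permutation, adjusted p = 0.0184, 0.0829 and 0.0337). By rho on that scale Kcnj3 and Kcnj5 alone passed (permutation, adjusted p = 0.0333, against 0.269 and 0.153).

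These 3 relations did not pass within mice of like coverage. Within the 9 mice of high coverage and little Myl7, r was 0.60 for Kcnj3 and Kcnj5, 0.49 for Kcnd2 and Kcnip2, and 0.04 for Kcnj2 and Kcnj12 (exact permutation tests, adjusted p = 0.261, 0.369 and 0.996), and the 4 mice of low coverage were too few for a value. After the linear part of coverage was taken out over all 13 mice, r was 0.49, 0.51 and 0.51 (permutation, adjusted p = 0.122 for each). The other pairs did not pass over the 13 mice. The r was 0.27 for Kcnj8 and Abcc9, 0.40 for Kcnma1 and Kcnmb1, -0.40 for Kcnq1 and Kcne1, -0.45 for Kcnip2 and Nppb, and -0.60 for Kcnd2 and Nppb (permutation, adjusted p = 0.360, 0.205, 0.205, 0.199 and 0.0617). Kcnj8 and Abcc9 passed within the 9 mice of high coverage (r = 0.85, exact permutation p = 0.00391, adjusted p = 0.0313, rho = 0.68, adjusted p = 0.354), but over the 13 mice r turned to -0.56 on TMM-normalized log2 CPM and to -0.50 after coverage (permutation, adjusted p = 0.0829 and 0.122). Nppb, the gene of B-type natriuretic peptide and a marker of ventricular load, was at 235 to 1280 TPM in WT mice and 140 to 651 TPM in WWP2 Mut/Mut mice. On residuals after genotype, lane and RNA concentration, its r was -0.82 with Kcnip2 and -0.83 with Kcnd2 (permutation p = 0.00061 and 0.00068, adjusted p = 0.00109 for both). The permutation treated the residuals of the 13 mice as free values. The terms taken out leave fewer, so these p-values are too small and are not read as a pass. After coverage was taken out, r was -0.31 and -0.70 (permutation, adjusted p = 0.295 and 0.0577), and within the 9 mice of high coverage it was -0.0017 and -0.29 (exact permutation, adjusted p = 0.996 and 0.606). On TMM-normalized log2 CPM, Kcnd2 and Nppb passed (r = -0.78, permutation, adjusted p = 0.0150).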

How the data were processed

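Poly(A)-selected RNA from the LV of 9 WT and 9 WWP2 Mut/Mut mice, grouped by the genotype in their labels, was sequenced on 4 lanes. The authors aligned reads to m38 with STAR 2.5.2b, quantified Ensembl 89 genes with RSEM 1.2.31, removed rRNA and mitochondrial genes, and deposited the expected count and the TPM of each gene and mouse. They also deposited a table of samples with lane, RNA concentration and a gene body coverage fraction (genebody_bottomhalf), whose definition is not given. The littermate mice are separate animals, so p-values measure the spread between mice. Columns of per-sample values not used numbered 0.

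Of the gene identifiers, 51242 of 51435 (99.6%) were matched to GENCODE M21 (GRCm38). Members are protein-coding genes whose symbol starts with Kcn. Members, gene lists and tests were chosen with earlier results of these data known. Genes with a mean of at least 1 TPM were named with their level, and the 12 highest, the 5 with the smallest genotype p and those called along Myl7 (none) were given in each genotype. The members described along Myl7 and coverage, other than those called, were chosen after their values were seen.

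Expected counts were rounded (5.11% of the deposited values were not whole) and tested with edgeR 4.0.16 (R 4.3.3, TMM, glmQLFit and glmQLFTest, more than 1 count in total, FDR below 0.05 over all genes), with lane and centred RNA concentration in the model as in the study's methods. Intervals are 95% and use the fit's total degrees of freedom (residual plus prior). Alternatives were DESeq2 1.42.0, limma 3.58.1 on log2(TPM + 1), other size factors, filters and covariates, and left-out libraries. Permutation tests were run in Python 3.11.15 with numpy 2.4.6 and scipy 1.17.1, over all divisions of the mice for single values, and for correlations with 100000 permutations, or all of them below 10 mice. The scripts were tested on simulated data. Levels below about 0.1 TPM rest on few counts, and changes there are weakly determined. Protein sequences were not used here, and some genes counted in the totals are not reported here by name.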

Additional observations from a re-analysis of the deposited data

Results flagged for a closer look

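Dixon's test at the 95% level was applied to the top and the bottom mouse of each genotype, comparing the distance to its neighbour with the whole span of the 9 mice. Of 40 groups (20 genes in 2 genotypes), 5 were marked, where chance marks about 1 in 20 groups. All 5 were the highest mouse of their group. WT mouse 45-1, the library highest in Myl7, was marked for 3 genes. Its Kcnh2 was at 24.2 TPM where the next WT mouse was at 18.7, its Kcnv2 at 2.19 TPM where the next was at 1.5, and its Kcne4 at 2.31 TPM where the next was at 1.40. WWP2 Mut/Mut mouse 22-3, another library with atrial RNA, was marked for Kcnk3, at 71.0 TPM where the next was at 53.8. WWP2 Mut/Mut mouse 54-1, with little Myl7 (2.19 TPM), was marked for Kcna5, at 15.96 TPM where the next was at 10.7. The part of atrial RNA in these values was not tested.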

How the results depend on the processing

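Wwp2 fell to 0.338 of its WT mean on TPM and to 0.358 on TMM-normalized CPM, with the same exact permutation p. No potassium channel gene was called between genotypes or along Myl7 under any alternative run, and 10 to 19 were called along gene body coverage. In those coverage runs 5252 to 8715 genes of the whole series were called, of 14850 to 26782 tested. Without the 5 libraries with atrial RNA no gene at all was called between genotypes. Over 17 named genes, none called, the sign of the genotype difference turned 18 times and was kept 164 times. On log2(TPM + 1) with limma the differences that turned were -0.11 for Kcnip2, -0.0296 for Kcnk3, -0.19 for Kcng2, -0.00894 for Kcnh2, -0.0943 for Kcnj8, -0.10 for Kcnq1, -0.0649 for Kcnj5, -0.0190 for Kcne1, -0.0353 for Kcnj3 and -0.16 for Kcnn1. The median over genes with at least 1 TPM was itself -0.14 on that scale and -0.01 on normalized log2 counts, and 16 of the 20 expressed members lay above it on both. Kcng2 was -0.0861 with no covariates, -0.0676 with lane alone and -0.00967 without the libraries with atrial RNA (the last an alternative chosen after seeing the data, as are those without such libraries or WT mouse 43-3 and those on coverage in correlations). Kcne1 was -0.22 with no covariates and -0.19 with lane alone. Kcnj11 was 0.0329 with coverage in the model and 0.0126 without the libraries with atrial RNA, and Kcnj8 was -0.00010 with coverage. Along Myl7, Kcna5 was 0.0321 by limma. Over all genes, 16 were called along Myl7 by edgeR and 4 without WT mouse 45-1.

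Of the correlations, Kcnd2 and Kcnip2 fell to 0.55 on normalized log2 counts, 0.51 after coverage and 0.49 in the 9 mice of high coverage, and Kcnj3 and Kcnj5 to 0.49 after coverage and 0.60 in those 9. Kcnj2 and Kcnj12 fell to 0.63 without the 2 farthest mice, 0.51 after coverage and 0.0396 in the 9. Kcnj8 and Abcc9 turned to -0.56 on normalized counts and -0.50 after coverage, and were 0.85 in the 9. Kcnq1 and Kcne1 turned to 0.51 after coverage and 0.34 in the 9. Kcnd2 and Nppb was -0.78 on normalized counts, and with genotype, lane and concentration removed -0.83, and Kcnip2 and Nppb -0.82. The cause of these changes was not tested. No paired analysis was possible because mice of the 2 genotypes share no number. Least could be seen of Kcnd2 and Kcnj12, whose genotype intervals were the widest of the expressed genes. Both also had steep slopes along coverage (-0.66 and -0.56 per SD), and the reason for the width was not tested.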
